A study of Homo sapiens with 4 samples.

Results

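The 54 genes described here act in cell division, 25 of them in DNA replication and 29 in mitosis. They are a list of names by known role, chosen with earlier results of these data known. Entrez identifiers were mapped to official symbols, and all 54 were listed in all 4 libraries, out of 16813 genes listed in at least 1 library. The lowest count of any of them was 343, and all 54 passed the filter on low counts. RNA was sequenced from PC9, a human lung adenocarcinoma line with an activating *EGFR* mutation, and from PC9OR, a line derived from PC9 that is resistant to osimertinib, an inhibitor of mutant EGFR. Each line has 2 libraries, labelled as biological replicates. Both lines are labelled WT for genotype, PC9 with the phenotype control and PC9OR with the phenotype osimertinib resistant, and both grew in the same serum-containing medium with no drug named in their culture. PC9OR is a single resistant line, so what goes with resistance and what goes with other differences between the cultures cannot be told apart. No source says whether replicates came from separate cultures, so p-values measure only the spread between these libraries, which may be technical. In RNA from whole cultures, fewer cells in a phase of the cell cycle and less RNA per cell in that phase cannot be told apart.

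Summed expected counts, estimated read numbers that need not be whole, ran from 23201307 to 32203998 per library, so that 3 counts were worth between 0.0936 and 0.128 CPM (counts scaled to library size). The PC9 libraries differed more than the PC9OR libraries, and their biological coefficients of variation were 0.241 and 0.104. Among the 29 mitosis genes the median size of the log2 difference between replicates was 0.24 in PC9 and 0.05 in PC9OR, and among the 25 replication genes it was 0.16 and 0.07. The epithelial marker *EPCAM* lay between 139 and 148 FPKM (fragments scaled by transcript length and library depth) in all 4 libraries. Of 8 markers of blood, endothelial and stromal cells, *CD68* alone exceeded 1 FPKM, and their sum ran from 5.26 to 6.9 in PC9 and from 2.7 to 2.86 in PC9OR. Of the 6 epithelial markers, 4 keratins were called higher and *CDH1* lower in PC9OR, and their summed FPKM ran from 2576 to 2987 in PC9 and from 5511 to 5720 in PC9OR. The defining markers *PTPRC*, *CD3E* and *VWF* were at or near 0 in every library. Whether *CD68* or the keratins bear on the division genes was not tested.

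Cells copy their DNA once in S phase and separate the copies in mitosis. Before S phase the origin recognition complex, CDC6 and CDT1 load the ring of MCM2 to MCM7 onto DNA, and CDC45 and the GINS complex then turn that ring into an active helicase. Polymerases, the sliding clamp PCNA and its loader RFC follow the fork, while ribonucleotide reductase and thymidylate synthase supply nucleotides. Many of these genes are switched on by E2F factors when a cell enters S phase. Genes of mitosis peak later, and many are controlled by the MuvB core with B-MYB and FOXM1, which act through an element named CHR and through CCAAT boxes. Their products include cyclin B and CDK1, which start mitosis, the spindle and its checkpoint, and the ubiquitin system that ends mitosis. Ki-67, the product of *MKI67*, coats mitotic chromosomes and is the common tissue marker of dividing cells.

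These control elements can be read in the promoters of these genes. In the RefSeq promoters of GRCh38.p14, from 250 bases before to 50 bases after each start, 23 of the 25 replication genes and 23 of the 29 mitosis genes had an entry. No entry matched *MCM4*, *MCM5*, *AURKA*, *BIRC5*, *FOXM1*, *TPX2*, *TTK* or *UBE2C*. The letters searched, on both strands, were TTTGAA for the CHR, CCAAT, and for E2F the words TTTCCCGC, TTTGGCGC and TTTCGCGC. The last 100 bases before the start are shown for *MKI67*, *TYMS* and *GINS2*, by the rule for the largest changes, and for *CDC20*, *PLK1*, *CDK1*, *PCNA* and *MCM6*, which were added after their values were seen. Sequences run along the strand of the gene, and capitals mark each match on either strand, so that ATTGG is CCAAT, GCGGGAAA is TTTCCCGC and GCGCGAAA is TTTCGCGC read on the other strand. Where RefSeq listed 2 starts, for *CDK1* and *PCNA*, the start with more matches is shown.

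The mitosis promoters lie at chr10:128126424-128126523 on the minus strand for *MKI67*, and on the plus strand at chr1:43358881-43358980 for *CDC20*, chr16:23678789-23678888 for *PLK1* and chr10:60778378-60778477 for *CDK1*.
MKI67: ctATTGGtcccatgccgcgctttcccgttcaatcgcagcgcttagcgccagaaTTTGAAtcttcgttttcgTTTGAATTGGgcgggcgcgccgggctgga
CDC20: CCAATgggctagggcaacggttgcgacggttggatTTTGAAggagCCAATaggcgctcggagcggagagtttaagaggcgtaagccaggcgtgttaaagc
PLK1: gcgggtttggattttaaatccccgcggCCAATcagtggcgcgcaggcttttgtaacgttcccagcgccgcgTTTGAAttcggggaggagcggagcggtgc
CDK1: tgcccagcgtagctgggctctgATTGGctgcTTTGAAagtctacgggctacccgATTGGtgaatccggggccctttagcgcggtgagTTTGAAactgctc

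Each of these 4 promoters held both CHR letters and a CCAAT box. In *MKI67* the letters TTTGAA begin 47 and 29 bases before the start, and the nearer copy shares a base with a CCAAT box. In *CDC20* they begin 65 bases before the start, in *PLK1* 29 bases, and in *CDK1* 69 and 13 bases.

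The replication promoters lie at chr18:657553-657652 on the plus strand for *TYMS*, and on the minus strand at chr16:85688955-85689054 for *GINS2*, chr20:5126623-5126722 for *PCNA* and chr2:135876444-135876543 for *MCM6*.
TYMS: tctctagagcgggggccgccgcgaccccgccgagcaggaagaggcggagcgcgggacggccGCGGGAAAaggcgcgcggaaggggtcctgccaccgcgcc
GINS2: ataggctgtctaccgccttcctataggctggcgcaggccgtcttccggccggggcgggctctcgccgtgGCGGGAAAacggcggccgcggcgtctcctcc
PCNA: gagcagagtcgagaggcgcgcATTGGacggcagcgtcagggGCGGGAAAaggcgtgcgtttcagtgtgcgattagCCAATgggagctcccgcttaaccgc
MCM6: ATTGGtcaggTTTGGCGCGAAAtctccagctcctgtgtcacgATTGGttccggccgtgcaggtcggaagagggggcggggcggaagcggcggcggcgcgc

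All 4 held an E2F word and none held the CHR letters in this window. In *MCM6* the words TTTGGCGC and GCGCGAAA overlap, so they stand for 1 stretch of DNA. Over the 300 bases searched, any E2F word was found in 14 of 23 replication genes (60.9%) and 2 of 23 mitosis genes (8.70%), against 3.30% of all 27305 genes with a promoter. The CHR letters were found in 16 of 23 mitosis genes (69.6%) and in 1 replication gene, *RRM1*, against 18.2% of all genes. CCAAT was common to both groups, in 19 mitosis and 16 replication genes, against 39.7% of all genes. Of the 16 mitosis genes with the CHR letters 5 were lower in PC9OR cells and 11 did not pass the test. Their median log2 fold change was 0.04. Of the 7 without the letters 1 was lower, with a median of 0.15. Among all genes tested 20.8% were lower. *FOXM1* and *TPX2*, both lower, and *TTK*, which was higher, had no entry and stand on neither side. Whether the letters bear on the changes was not tested. A match describes letters in a window and is not a bound site.

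To ask how the division genes of resistant cells compare with those of the parental line, PC9OR was compared with PC9 for replication and mitosis genes apart. Of the 25 replication genes, 6 were higher and 2 lower in PC9OR cells, and of the 29 mitosis genes 1 was higher and 8 were lower. The largest changes were falls, 5.37-fold for *MKI67*, 3.70-fold for *FOXM1*, 2.19-fold for the replication gene *TYMS*, 2.17-fold for *CDC20* and 2.10-fold for *TPX2*. The replication genes that rose did so by less, from 1.33-fold for *MCM3* to 1.65-fold for *GINS2*. Mitosis as a whole did not move one way, with log2 fold changes above 0 for 15 of its 29 genes and under 0 for 14. Its median log2 fold change was 0.04. Of its 29 genes 20 did not pass the test, and neither did 8358 of all 13148 genes tested. A gene is called here at a Benjamini-Hochberg adjusted p under 0.05 in the quasi-likelihood test of edgeR, adjusted over all 13148 genes tested, and every adjusted p below without another tool named is from this test.

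These counts are read against the whole transcriptome. Of all genes tested, 15.6% were called higher and 20.8% lower, with a median log2 fold change of 0.01. Among replication genes 24.0% were called higher and 8% lower, with a median of 0.23. Among mitosis genes 3.45% were called higher and 27.6% lower. At an unadjusted p under 0.05 from edgeR, 10 replication and 13 mitosis genes passed in either direction, against 50.6% of all genes. Both PC9OR libraries exceeded both PC9 libraries for 13 replication and 12 mitosis genes, and 39.6% of all genes did so. Both were below for 6 replication and 12 mitosis genes, against 38.2% of all genes, and the lines overlapped for 6 and 5. The share of lower mitosis genes and the shares of mitosis genes above and below are thus near those of all genes. Replication genes had a larger share above and a smaller share below than all genes, which was not tested. No test sets the 2 groups against each other.

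**Figure D1:**
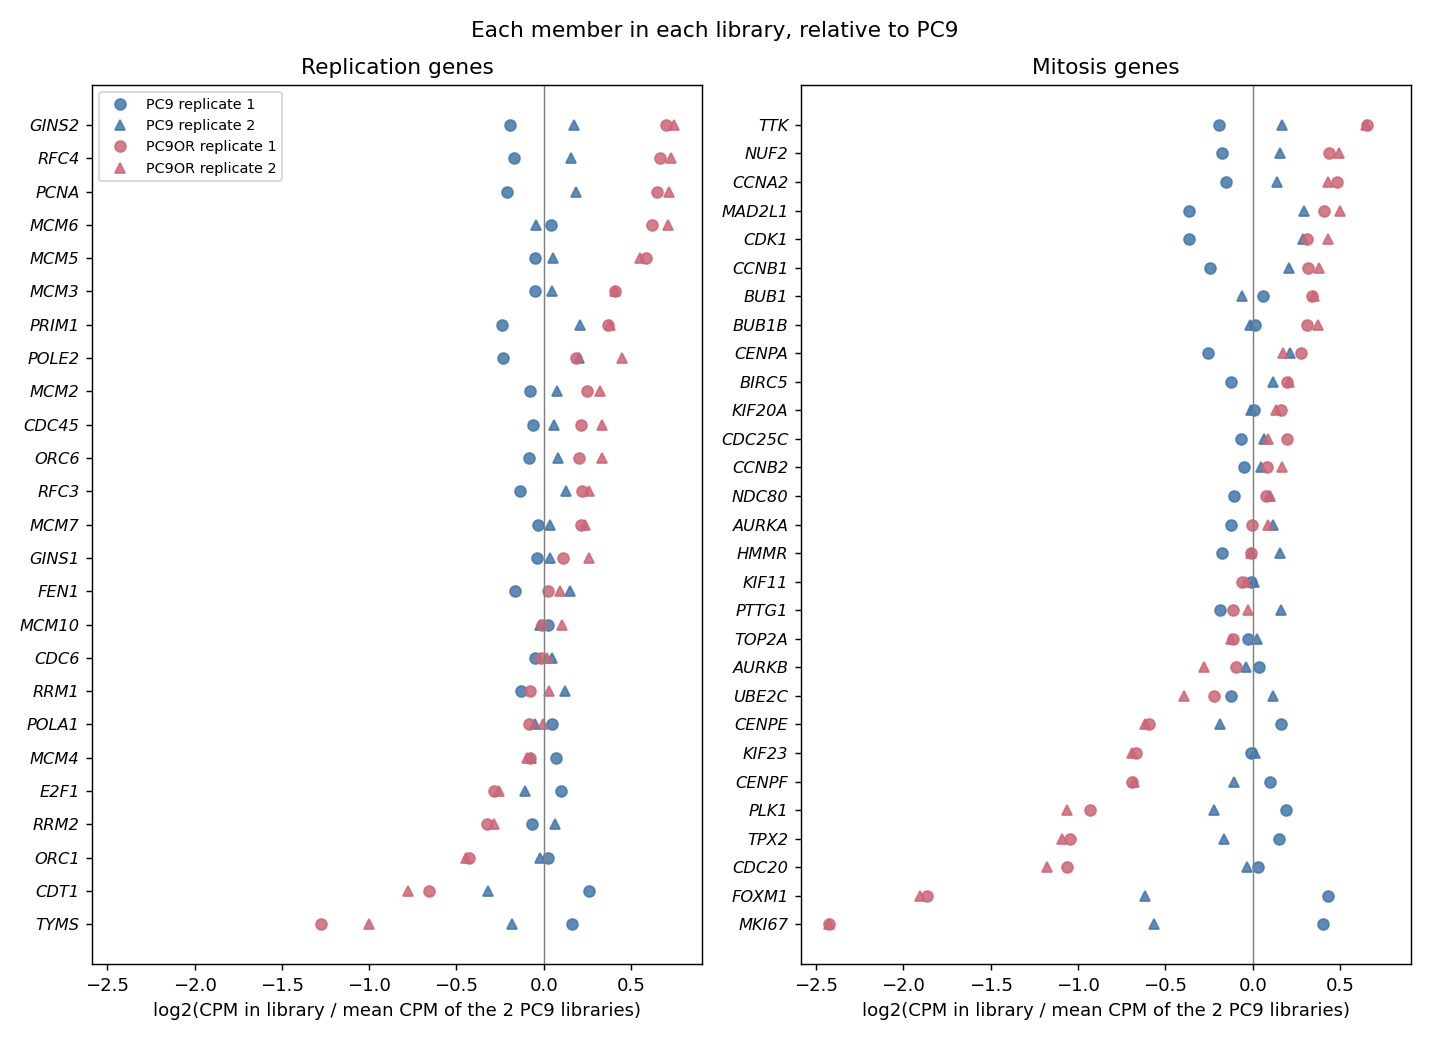
Each of the 25 replication genes (left) and 29 mitosis genes (right) in each library, as log2 of its CPM over the mean CPM of the 2 PC9 libraries, with PC9 in blue, PC9OR in red, and circles and triangles for replicates 1 and 2. The PC9OR points lie close together, while the PC9 points of *MKI67* and *FOXM1* are about 1 log2 unit apart and still both above PC9OR.

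The count of higher and lower genes depends on the libraries that set the spread. With PC9OR replicate 1 left out, 0 replication genes were higher, 0 were lower, and 0 mitosis genes were higher, while 4 mitosis genes stayed lower, and of all genes 3.88% were called higher and 8.7% lower. With PC9OR replicate 2 left out, the numbers were 0, 1, 0 and 4, against 3.9% and 8.82% of all genes. In these fits the spread comes from the 2 PC9 libraries alone, and the lone PC9OR library is assumed to vary like them. With PC9 replicate 2 left out, 14 replication genes were higher and 5 lower, and 10 mitosis genes were higher and 8 lower, against 29% and 28.9% of all genes. With PC9 replicate 1 left out, 7 replication genes were higher and 4 lower, and 5 mitosis genes were higher and 10 lower, against 21% and 23.1% of all genes.

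*MKI67* showed the largest change of the 54 without offsets for transcript length, while with them *FOXM1* did, at -1.74. *MKI67* had 854 and 436 CPM in PC9 replicates 1 and 2 and 120 CPM in each PC9OR replicate. The PC9 libraries differed by 0.97 on the log2 scale, yet both were far above PC9OR. The log2 fold change was -2.43 (SE 0.336, adjusted p = 0.00988 from edgeR). The gene lies at chr10:129894923-129924687 on the minus strand of GRCh37, and its transcript length of 12417 bases is the longest among the 54. With offsets for transcript length its log2 fold change was -1.48 (adjusted p = 0.00546 from edgeR), so the size of the fall differed by more than 1.5 times between the fits while the call did not.

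*TOP2A*, the topoisomerase that untangles chromosomes and another common proliferation marker, did not pass the test. It had 705 and 731 CPM in PC9 and 663 and 659 CPM in PC9OR. The log2 fold change was -0.12 (SE 0.103, adjusted p = 0.388 from edgeR), with a 95% interval from -0.38 to 0.14. With the length offsets it was 0.24 (adjusted p = 0.171), so not even its sign is settled. The FPKM ratio of *MKI67* to *TOP2A* was 0.555 and 0.272 in the PC9 libraries and 0.0830 and 0.0832 in the PC9OR libraries, so these markers changed unequally.

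*FOXM1*, the forkhead factor that drives late cell cycle genes, had 177 and 85.8 CPM in PC9 and 36.1 and 35.1 CPM in PC9OR. Both PC9OR libraries were below both PC9 libraries, as for 38.2% of all genes, although the PC9 libraries differed by 1.04 on the log2 scale. The log2 fold change was -1.89 (SE 0.355, adjusted p = 0.0178 from edgeR), and with the length offsets it was -1.74. Without PC9 replicate 1, the higher PC9 library, it was -1.28, and without PC9 replicate 2 it was -2.33. The gene lies at chr12:2966846-2986340 on the minus strand of GRCh37. Expected counts of *FOXM1*, *TPX2*, *KIF23*, *CENPE*, *CENPA*, *PRIM1* and *E2F1* were not whole in any library, so part of each was assigned by estimate and their values are less certain.

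None of the 5 genes of the mitotic cyclins, CDK1 and its activator passed the test. *CCNB1*, the cyclin that starts mitosis, had 365 and 499 CPM in PC9 and 537 and 563 CPM in PC9OR, with a log2 fold change of 0.35 (SE 0.175, adjusted p = 0.168 from edgeR). *CDK1*, its kinase, had 177 and 278 CPM in PC9 and 282 and 307 CPM in PC9OR, with a log2 fold change of 0.37 (SE 0.231, adjusted p = 0.246 from edgeR). In both genes PC9 replicate 1 was the low library, and without it their log2 fold changes were 0.13 (adjusted p = 0.120) and 0.08 (adjusted p = 0.437). Without PC9 replicate 2 they were 0.58 (adjusted p = 0.00270) and 0.72 (adjusted p = 0.00301), so the call depended on which PC9 library was kept. *CCNA2*, the cyclin of S phase and early mitosis, had a log2 fold change of 0.46 (adjusted p = 0.0526 from edgeR), just outside the threshold, and was called higher in 12 of 15 alternative fits. *CCNB2* had 0.13 and *CDC25C*, the phosphatase that activates CDK1, had 0.14. The FPKM ratio of *FOXM1* to *CCNB1* was 0.292 and 0.103 in PC9 and 0.0401 and 0.0373 in PC9OR.

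Among the mitotic kinases and their partners, *PLK1* fell and the Aurora genes did not pass the test. *PLK1*, which acts in centrosome maturation and chromosome segregation, had 192 and 144 CPM in PC9 and 88.1 and 80.2 CPM in PC9OR. Its log2 fold change was -1.0 (SE 0.170, adjusted p = 0.0145 from edgeR), and without PC9OR replicates 1 and 2 in turn the adjusted p was 0.0512 and 0.0777. *AURKA*, a spindle pole kinase, had a log2 fold change of 0.04, and *AURKB*, the kinase of the chromosomal passenger complex, had -0.19 (adjusted p = 0.271 from edgeR). *BIRC5*, which encodes survivin of the same complex, had 143 and 169 CPM in PC9 and 179 and 180 CPM in PC9OR, with a log2 fold change of 0.20 (SE 0.124, adjusted p = 0.239 from edgeR).

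*CDC20*, which activates the anaphase-promoting complex, was the most even of the large falls. It had 246 and 236 CPM in PC9 and 115 and 106 CPM in PC9OR. Its log2 fold change was -1.12 (SE 0.108, adjusted p = 0.00547 from edgeR), and with the length offsets it was -1.29. The gene lies at chr1:43824652-43828874 on the plus strand of GRCh37. The other anaphase genes did not pass the test. *UBE2C*, the ubiquitin-conjugating enzyme of that complex, had a log2 fold change of -0.31 (adjusted p = 0.133 from edgeR), and *PTTG1*, which encodes securin, had -0.07 (adjusted p = 0.738). These are the shortest transcripts of the 54, and with the length offsets both passed, at -0.74 (adjusted p = 0.00878) and -0.53 (adjusted p = 0.0120).

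The spindle gene *TPX2*, an activator of Aurora A, had 339 and 273 CPM in PC9 and 148 and 143 CPM in PC9OR, and its log2 fold change was -1.07 (SE 0.142, adjusted p = 0.00918 from edgeR). The spindle gene *HMMR* did not pass the test, with a log2 fold change of -0.01 and a 95% interval from -0.38 to 0.36. Of the 3 kinesin motors, *KIF23* of the central spindle fell by 0.68 on the log2 scale (adjusted p = 0.0117 from edgeR). *KIF11*, which pushes spindle poles apart, had a log2 fold change of -0.05 and *KIF20A* of 0.15, and neither passed the test.

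At the kinetochore 2 of 5 genes were called lower, and both calls were lost with offsets for transcript length. *CENPF* had 771 and 669 CPM in PC9 and 447 and 450 CPM in PC9OR, with a log2 fold change of -0.69 (SE 0.121, adjusted p = 0.0153 from edgeR). *CENPE*, a kinetochore motor, fell by 0.61 (adjusted p = 0.0352 from edgeR). After *MKI67* they have the longest transcripts of the 54, and with the length offsets their log2 fold changes were 0.07 (adjusted p = 0.641) and -0.01 (adjusted p = 0.970). *NUF2* had 0.46, *CENPA* 0.23 and *NDC80* 0.09, with adjusted p of 0.0624, 0.374 and 0.589 from edgeR.

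The spindle checkpoint held the only mitosis gene that was called higher. *TTK*, the kinase at the top of that checkpoint, had 88.0 and 113 CPM in PC9 and 159 and 158 CPM in PC9OR, and its log2 fold change was 0.65 (adjusted p = 0.0288 from edgeR). *BUB1*, *BUB1B* and *MAD2L1* had log2 fold changes of 0.35, 0.34 and 0.45, with adjusted p of 0.0562, 0.0517 and 0.172 from edgeR. For all 4 checkpoint genes both PC9OR libraries exceeded both PC9 libraries, as they did for 39.6% of all genes. The same held for the mitotic cyclin genes, *CDK1* and *CDC25C*. With the length offsets *BUB1* and *BUB1B* passed as well, at 0.49 (adjusted p = 0.0146) and 0.50 (adjusted p = 0.0162).

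**Figure D2:**
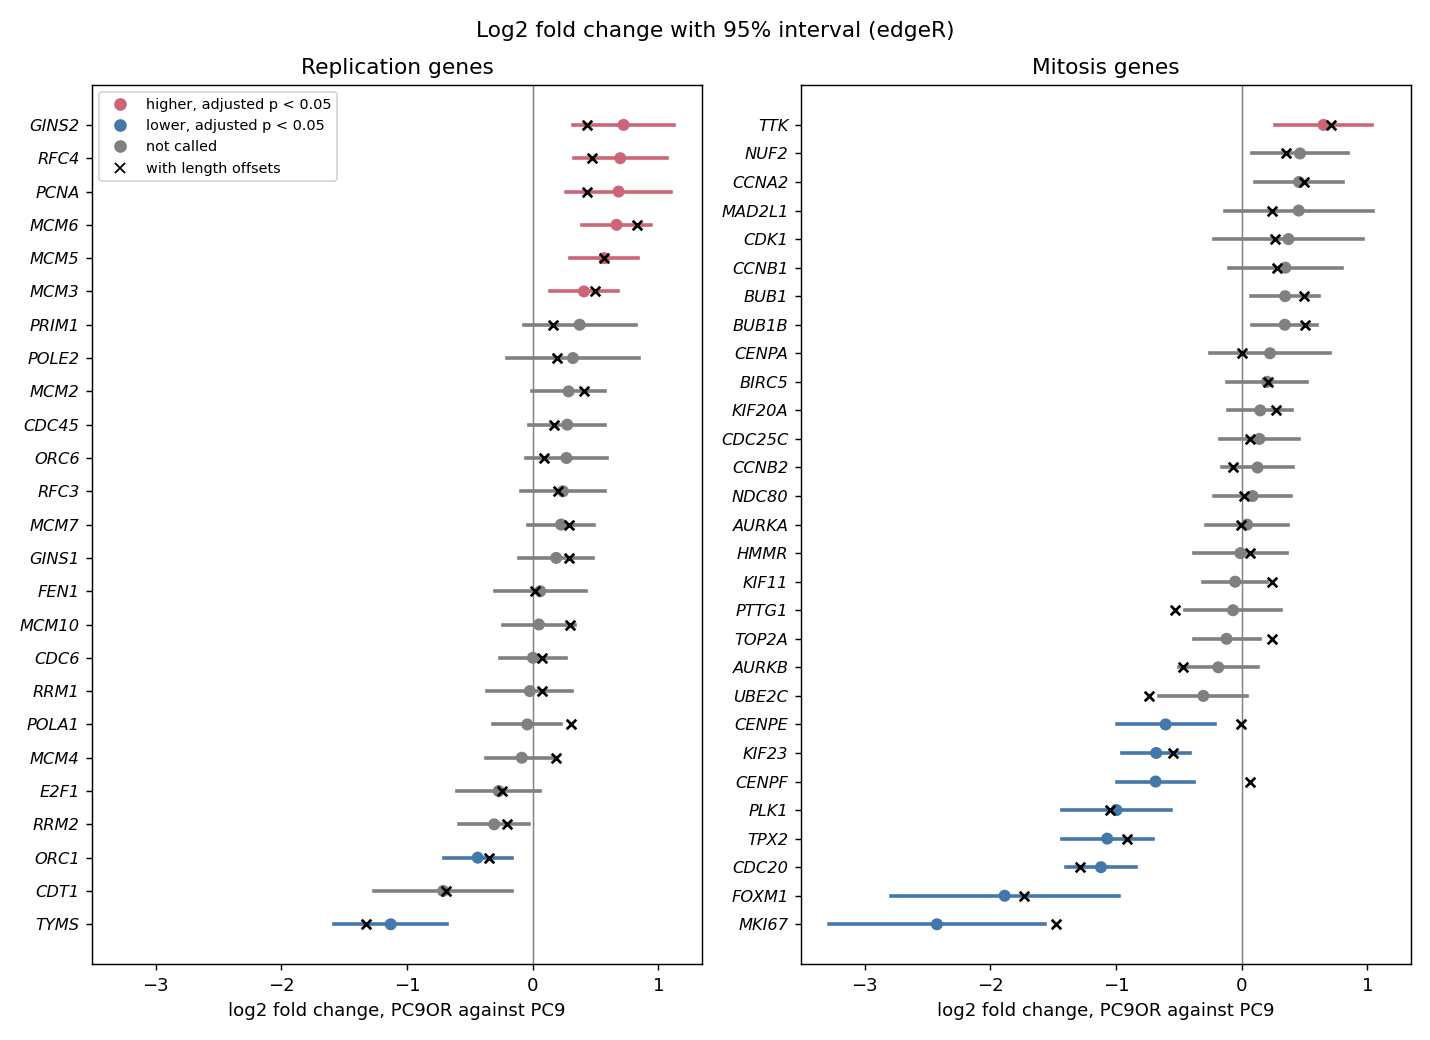
Log2 fold change of PC9OR against PC9 from edgeR with its 95% interval for the replication genes (left) and the mitosis genes (right), in red or blue where the adjusted p was under 0.05 and in grey where it was not, with a cross for the value with length offsets. Falls of mitosis genes reach -2.43, rises of replication genes end at 0.72, and the crosses of *CENPF* and *CENPE* lie near zero.

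In replication, 3 of the 6 subunits of the MCM ring were higher in PC9OR cells and 0 were lower. *MCM6* had 93.8 and 88.2 CPM in PC9 and 140 and 149 CPM in PC9OR, with a log2 fold change of 0.67 (SE 0.108, adjusted p = 0.0128 from edgeR). *MCM5* had 182 and 196 CPM in PC9 and 284 and 277 CPM in PC9OR, with a log2 fold change of 0.57 (SE 0.105, adjusted p = 0.0171 from edgeR). In both the lines lay far apart compared with their replicates. *MCM3* rose by 0.41 (adjusted p = 0.0383 from edgeR), and its adjusted p was 0.0574 once a term for the replicate number was added. *MCM2* had 200 and 224 CPM in PC9 and 251 and 265 CPM in PC9OR, and its log2 fold change of 0.29 (SE 0.114, adjusted p = 0.103 from edgeR) did not pass the test. *MCM7* had 0.23 and *MCM4* had -0.09. The ring holds equal numbers of its subunits, but the transcripts were uneven, with *MCM7* the highest and *MCM6* the lowest per length in all 4 libraries. The highest was 6.93 and 7.73 times the lowest in PC9 and 5.53 and 5.25 times in PC9OR.

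Of the clamp and its loader, 2 of 3 genes rose. *PCNA* had 232 and 306 CPM in PC9 and 421 and 443 CPM in PC9OR, with a log2 fold change of 0.68 (SE 0.162, adjusted p = 0.0306 from edgeR). *RFC4*, a subunit of the clamp loader, had 68.8 and 86.3 CPM in PC9 and 123 and 128 CPM in PC9OR, with a log2 fold change of 0.70 (SE 0.145, adjusted p = 0.0226 from edgeR). The loader subunit *RFC3* had 0.24 and did not pass. Of the genes that activate the helicase, *GINS2* had 37.9 and 48.9 CPM in PC9 and 70.6 and 72.7 CPM in PC9OR, with a log2 fold change of 0.72 (SE 0.156, adjusted p = 0.0246 from edgeR). *GINS1*, *CDC45* and *MCM10* had log2 fold changes of 0.19, 0.28 and 0.05 and did not pass. In *PCNA*, *RFC4* and *GINS2* PC9 replicate 1 was the low library. Both PC9OR libraries exceeded both PC9 libraries in these genes, as they did for 39.6% of all genes. These transcripts are short, between 1180 and 1410 bases, and with the length offsets their log2 fold changes were 0.43, 0.47 and 0.43, all still called.

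Of the 3 genes of nucleotide supply, 1 fell and 0 rose. *TYMS*, thymidylate synthase, had 75.4 and 59.5 CPM in PC9 and 27.8 and 33.7 CPM in PC9OR. The log2 fold change was -1.13 (SE 0.176, adjusted p = 0.0119 from edgeR), a 2.19-fold fall, and without PC9OR replicate 1 the adjusted p was 0.0566. It was the only replication gene called with more than a 2-fold change. The gene lies at chr18:657653-673578 on the plus strand of GRCh37. *RRM2*, the regulated subunit of ribonucleotide reductase, had 232 and 254 CPM in PC9 and 193 and 199 CPM in PC9OR, with a log2 fold change of -0.31 (SE 0.108, adjusted p = 0.0773 from edgeR). Its partner *RRM1* had -0.02 and did not pass.

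Of the 4 licensing genes, *ORC1*, the largest subunit of the origin recognition complex, fell by 0.44 (adjusted p = 0.0313 from edgeR). *CDT1*, which loads the helicase with *CDC6*, had 69.1 and 46.4 CPM in PC9 and 36.6 and 33.7 CPM in PC9OR, with a log2 fold change of -0.71 (adjusted p = 0.0535 from edgeR). With the length offsets *CDT1* passed at -0.69 (adjusted p = 0.0376). *CDC6* did not pass the test, with a log2 fold change of 0.00 and a 95% interval from -0.26 to 0.27, and *ORC6* had 0.27. Of the genes that load the helicase 0 of 4 were thus called higher, against 3 of 6 for the helicase itself and 15.6% of all genes. Each role holds few genes, and no test compared these roles. None of the 4 polymerase and maturation genes passed, with 0.37 for *PRIM1*, 0.32 for *POLE2*, 0.06 for *FEN1* and -0.04 for *POLA1*. *E2F1*, the factor that drives entry into S phase, had 36.0 and 31.2 CPM in PC9 and 27.6 and 28.1 CPM in PC9OR, with a log2 fold change of -0.27 (SE 0.129, adjusted p = 0.151 from edgeR).

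The calls above differed in how they stood up to the other fits. *MKI67*, *FOXM1*, *CDC20* and *TPX2* were called lower at an adjusted p under 0.05 in all 15 alternative fits of the closing section, while at more than 2-fold and an adjusted p under 0.001 no gene of the transcriptome was called. Without PC9OR replicate 1 the other called genes lost their call, with adjusted p from 0.0512 for *PLK1* to 0.340 for *MCM3*, and without PC9OR replicate 2 they did so as well except *TYMS*, from 0.0777 for *PLK1* to 0.355 for *ORC1*. Their log2 fold changes in those fits moved little, for example from 0.56 to 0.59 for *MCM5* and from 0.65 to 0.73 for *PCNA*.

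Levels were compared between genes per transcript length. In PC9 the most abundant of the 54 was *PTTG1*, with 185 ± 30.7 FPKM (SD, n = 2), followed by *PCNA* with 158 ± 28.6, *CCNB1* with 147 ± 30.1 and *MCM7* with 127 ± 2.21. These neighbours lay within the spread of their replicates. In PC9OR *PCNA* led with 249 ± 4.89 FPKM (SD, n = 2), followed by *CCNB1* with 184 ± 3.41, *PTTG1* with 175 ± 3.67 and *MCM7* with 145 ± 0.481, and these 4 did not overlap between libraries. *MKI67* moved furthest down the order, from position 26, with 36.6 ± 17.4 FPKM, to position 53 of 54, with 6.62 ± 0.0990. *FOXM1* went from position 34, with 27.1 ± 13.7 FPKM, to 52, with 7.12 ± 0.226. *CENPE* was the lowest in both lines, with 6.27 ± 1.17 and 4.02 ± 0.0919 FPKM.

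Summed over the 25 replication genes, FPKM was 1007 and 1094 in the PC9 libraries and 1234 and 1252 in the PC9OR libraries. Summed over the 29 mitosis genes it was 1436 and 1559 in PC9 and 1401 and 1387 in PC9OR. The replication sums did not overlap between the lines, and neither did the mitosis sums, which lay closer together. The ratio of the mitosis to the replication sum was 1.43 in both PC9 libraries and 1.14 and 1.11 in PC9OR. This ratio was the same in the PC9 libraries although both of their sums differed. Abundant genes weigh most in such sums, and *PCNA* alone went from a mean of 158 to 249 FPKM and *CDC20* from 109 to 49.1. Against the direction of their sums, 8 of the 25 replication genes had a log2 fold change under 0 and 15 of the 29 mitosis genes one above 0.

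**Figure D3:**
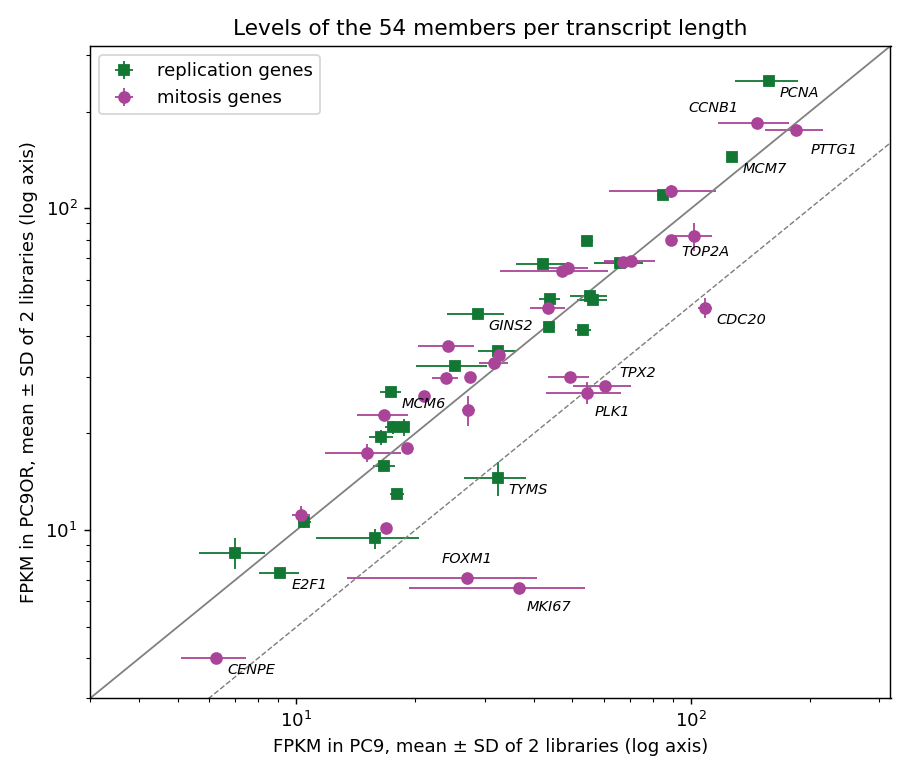
FPKM of the 54 genes in PC9OR against PC9, both on log axes, with green squares for replication and purple circles for mitosis genes, bars for the SD of 2 libraries, a solid line at equality and a dashed line at a 2-fold lower level in PC9OR. *MKI67* and *FOXM1* lie farthest below the dashed line, and *PCNA* is the highest point.

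Transcript length moved with these results. Over all 13148 genes the rank correlation of the log2 fold change with transcript length was -0.34, over the 25 replication genes -0.42 and over the 29 mitosis genes -0.30. These values describe genes of the same 4 libraries, which are not independent. With offsets that take out a smooth curve of the count on length in each library, the correlations were -0.01, 0.07 and 0.11. All 8 replication calls remained, with 7 higher and 3 lower in all, *MCM2* and *CDT1* being added. Of the 9 mitosis calls 7 remained, *CENPF* and *CENPE* being lost, and with *BUB1*, *BUB1B*, *CCNA2*, *UBE2C* and *PTTG1* added there were 4 higher and 8 lower. Of all 13148 genes tested, 2626 were higher and 2418 lower with these offsets, against 2056 and 2734 without them. Why length moved with the difference was not tested.

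**Figure D4:**
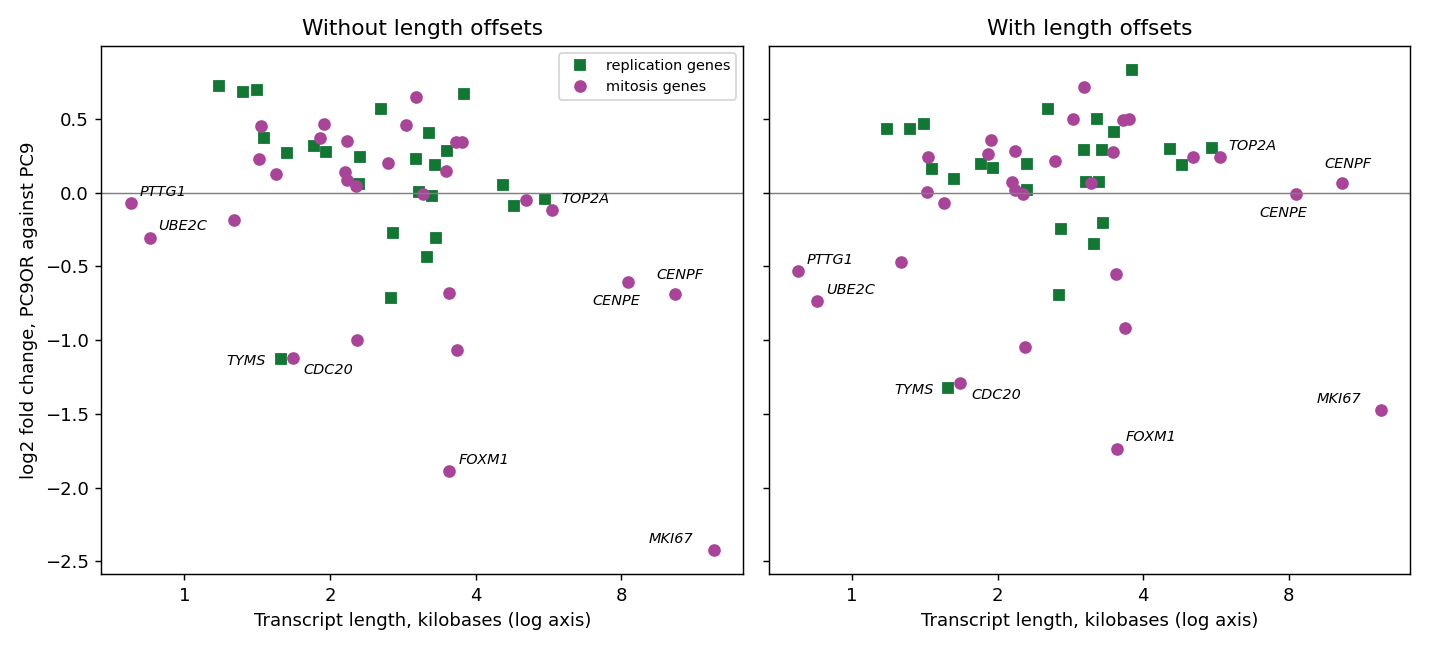
Log2 fold change of PC9OR against PC9 plotted on transcript length in kilobases (log axis) for the 54 genes, without (left) and with (right) offsets for length, with green squares for replication and purple circles for mitosis genes. *CENPE* and *CENPF* move to near zero and *MKI67* from -2.43 to -1.48. *MKI67*, *FOXM1*, *CDC20* and *TYMS* stay more than 2-fold lower.

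Other genes of the same processes were taken from lists of textbook roles. Of 45 further replication genes, 14 were higher and 5 lower in PC9OR cells, with a median log2 fold change of 0.32. These were 31.1% and 11.1% of the 45, against 15.6% and 20.8% of all genes. The largest rises were 1.10 for *RNASEH2B*, a subunit of the ribonuclease that removes ribonucleotides from DNA, 1.04 for *POLE4*, a small subunit of polymerase epsilon, and 0.92 for *RFC2* of the clamp loader (adjusted p = 0.0147, 0.0254 and 0.00964 from edgeR). The largest falls were -1.5 for *TICRR*, which fires origins, -1.31 for *CLSPN*, which carries the replication stress signal, and -0.76 for *RPA1*, which coats single-stranded DNA (adjusted p = 0.00988, 0.0142 and 0.0361 from edgeR). With the length offsets, 22 of the 45 were higher and 3 lower, and without PC9OR replicate 1 and replicate 2 in turn 2 and 1 were higher and 2 and 2 lower. *POLE4* and *RPA1* were not called in either of these fits, nor *RFC2* without PC9OR replicate 2. With the length offsets *POLE4* was at 0.55 and *CLSPN* at -0.78. Of all 13148 genes, 2626 were higher and 2418 lower with these offsets.

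Of 75 further mitosis genes, 8 were higher and 20 lower, with a median log2 fold change of 0.06. The largest falls were -1.64 for *CDC25B*, a phosphatase that activates cyclin-dependent kinases, -1.52 for *ESPL1*, which encodes the protease separase, and -1.37 for *TACC3*, which stabilises spindle microtubules (adjusted p = 0.0160, 0.00699 and 0.0183 from edgeR). The largest rises were 0.82 for *CENPK*, 0.80 for *CENPW* and 0.78 for *SKA2*, all of the kinetochore (adjusted p = 0.0266, 0.0354 and 0.0167 from edgeR). Of the 75 genes 10.7% were thus higher and 26.7% lower, against 15.6% and 20.8% of all genes. With the length offsets 12 of the 75 were higher and 16 lower, against 2626 and 2418 of all 13148 genes. With them *CDC25B*, *ESPL1* and *TACC3* were at -1.58, -1.06 and -1.32. Without PC9OR replicate 1 or without PC9OR replicate 2, 0 were higher and 4 lower, so *CENPK*, *CENPW* and *SKA2* were not called, and with the length offsets *CENPW* was at 0.50.

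Of 18 genes of the RB, E2F and MuvB factors, which control both groups, 2 were higher (11.1%) and 6 lower (33.3%). Of all genes 15.6% and 20.8% were so called, and the median log2 fold change of the 18 was -0.05. *E2F7*, a repressor of the E2F family, had 63.2 and 48.5 CPM in PC9 and 15.8 and 16.8 CPM in PC9OR, a log2 fold change of -1.78 (adjusted p = 0.00547 from edgeR). *RBL1*, which encodes p107, fell by 1.15, and *RBBP4*, a histone-binding subunit of MuvB, fell by 1.09 (adjusted p = 0.00836 and 0.00547 from edgeR). *LIN9*, a core subunit of MuvB, rose by 0.66 and *RBL2*, which encodes p130, rose by 0.50 (adjusted p = 0.0151 and 0.0233 from edgeR). *RB1* had a log2 fold change of -0.02 and did not pass the test. Without PC9OR replicate 1 or without PC9OR replicate 2, 0 of the 18 were higher and 4 lower, and *LIN9* and *RBL2* were not called. With the length offsets *RBBP4* was at -0.53 and *RBL2* at 0.78. *TFDP2*, a partner of the E2F factors named after its values were seen, had the lowest log2 fold change of the list, -1.99 (adjusted p = 0.0537 from edgeR), and its PC9OR libraries differed, with 6.18 and 1.69 CPM.

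**Figure D5:**
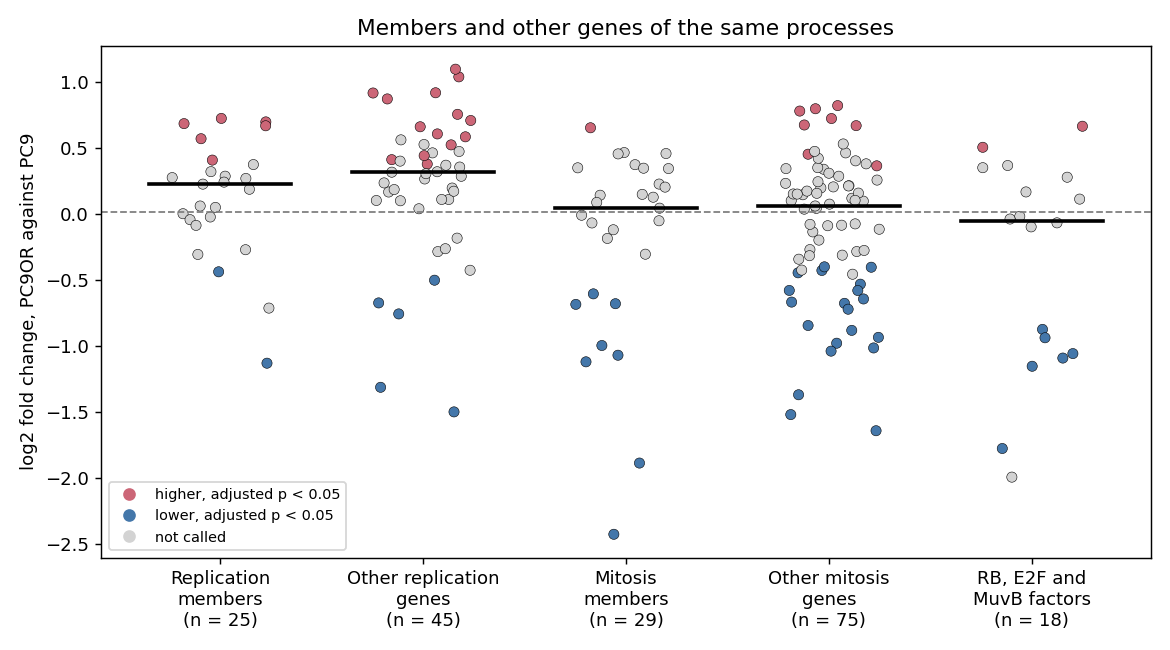
Log2 fold change of PC9OR against PC9 for the 25 replication and 29 mitosis genes and for the 3 lists of other genes, with a point for each gene in red or blue where the adjusted p was under 0.05 and in grey where it was not, a black bar at each median, and a dashed line at the median of all genes tested, 0.01. The medians of the replication lists, 0.23 and 0.32, lie above the dashed line. The values of every list shown reach farther down than up, as do those of all genes tested, from -14.4 to 11.7.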

How the data were processed

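Per the labels, RNA was extracted from PC9 and PC9OR cells and made into stranded libraries, 2 for each line. The submitters' processing notes name Bowtie2 2.2.5, RSEM 1.2.12 and GRCh37. The authors deposited expected counts, which are not normalized, FPKM values, which scale those counts by length and depth, and the length of each gene's transcripts in bases. A gene that a library does not list was given 0. Whether the counting used strand is not given in the sources used here. The quasi-likelihood test of edgeR 4.0.16 in R 4.3.3 was run on rounded expected counts (TMM, filterByExpr, estimateDisp, glmQLFit, glmQLFTest, without a replicate block), tested first on simulated data. Of the 54 genes, 20 had a deposited count that was not exactly whole in at least 1 library. Totals of 23201307 to 32203998 counts set the depth, and intervals at 95% are those of the fitted log2 fold change. Symbols were matched for 16755 of 16813 genes from the RefSeq table, and gene positions come from GENCODE lifted to GRCh37.

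The study names DEGseq, which was not used here, since it was not installed. An MA-plot-based model on pooled replicates took its place as an alternative, beside DESeq2 1.42.0, limma 3.58.1 (limma-trend on log2(FPKM + 1) and log2(FPKM + 0.1), genes over 1 FPKM in at least 2 libraries), offsets for length from mgcv 1.9.3, the replicate block, other filters and scalings, and fits that left out 1 library each. The genes, the lists and the rule for calling a gene were chosen with earlier results of these data known. Full statistics are given for 12 genes of central roles and for the 6 largest changes called in each group, and of the wider lists the 3 largest called changes in each direction are named.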

Additional observations from a re-analysis of the deposited data

How the results depend on the processing

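Where a value changed, the cause was not tested, except that leaving out a PC9OR library takes the spread from the PC9 libraries alone. The 6 replication genes higher became 15 with the MA-plot-based model and 0 at more than 2-fold and an adjusted p under 0.001, and ran from 0 to 14 with a library left out. The 2 lower became 4 with the Wald test of DESeq2 and both limma-trend fits, 7 with the MA-plot-based model and 0 at the stricter threshold, and ran from 0 to 5 with a library left out. The 1 mitosis gene higher became 2 with DESeq2's size factors or library totals, 3 with both limma-trend fits and with at least 10 counts in every library, 5 with the Wald test of DESeq2, 14 under the MA-plot-based model, 0 at the stricter threshold, and ran from 0 to 10 with a library left out. It was 4 with the length offsets, 4 with the length offsets and the replicate block, and 4 with the replicate block. The 8 mitosis genes lower became 13 with the MA-plot-based model and 0 at the stricter threshold, and ran from 4 to 10 with a library left out. The stricter threshold could give only 0, since the smallest adjusted p of all genes was 0.00155. The calls over all genes moved with the fits as well. Of 14870 genes the MA-plot-based model called 5764 higher and 5705 lower. The Wald test of DESeq2 called 2439 and 3030 of 13148. On log2(FPKM + 1) limma-trend called 2067 and 2561 of 10738, and on log2(FPKM + 0.1) 2066 and 2587. The replicate block gave 2593 and 2946 of 13148.

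The replication median of 0.23 was 0.16 with both limma-trend fits and ran from 0.11 to 0.27 with a library left out. The mitosis median of 0.04 was 0.067 with the length offsets and 0.068 with the replicate block added, and ran from -0.067 to 0.15 with a library left out. *TOP2A* changed sign to 0.24 with the length offsets and 0.25 with the block added, and *CENPF* to 0.067 and 0.068. Same-numbered libraries had a correlation of deviations from their line's mean of 0.05 over all genes and 0.27 over the 54. With 2 pairs and no pairing in the labels, the numbers were not taken as pairs. The replicate block lost only the call of *MCM3* (adjusted p = 0.0574 from edgeR) among the 17. For the 19 genes with full statistics, 247 recomputed values kept their direction and side of the threshold, 15 lost and 19 gained significance in the same direction, and 4 changed sign. For the other genes of the same processes, these alternatives were added after the data were seen, and the 14 replication genes higher ran from 1 to 35 and the 20 mitosis genes lower from 4 to 34.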
